A study of Mus musculus with 12 samples.

Results

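Transcripts of T lineage and lymphoid progenitor genes were followed in mouse splenic B cell preparations, across 2 genotypes and 2 culture states. The 10 genes were named as a list: the CD3 chain genes Cd3d, Cd3e and Cd3g, the surface markers Thy1 and Cd4, the transcription factor genes Bcl11b, Tcf7, Lef1 and Sox4, and the IL-7 receptor gene Il7r. All 14 probes whose transcript accession belonged to these genes were taken, out of 55,681 non-control probes and 20,018 named genes on the array. The genes were selected on biology with the measured levels in resting knockout and control cells already in view, so the values of that comparison are given as a description. In the knockout stimulated group, cells of genotype B1-8hi:Sub1fl/fl-Mb1-Cre were cultured for 72 h with NP-ficoll, CD40 ligand and the interleukins IL-2, IL-4 and IL-5, and in the control stimulated group cells of genotype B1-8hi:Sub1fl/fl without Cre had the same culture. The knockout resting and control resting groups held the same genotypes in the state labelled naïve. Each group had 3 replicates, giving 12 one-colour arrays. Sub1 encodes the chromatin protein PC4, its alleles are floxed in all 4 groups, and Mb1-Cre is a recombinase placed in the Cd79a locus that acts in the B lineage from the progenitor stage on. B1-8hi is a prearranged heavy chain knock-in, carried by all groups, whose antibodies bind the hapten NP. Sub1 loss, the presence of Cre and its place in Cd79a therefore cannot be told apart in any comparison of knockout with control. The labels do not say whether replicates came from separate animals, so the spread that the p-values measure is that of these samples. Y-linked signal in control replicate 1 alone, described below, means that the control replicates did not all come from the same animals. For the other replicates the spread may be technical.

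T cells recognise antigen through a receptor whose signal is carried by the CD3 chains, and CD4 is the coreceptor of helper T cells. The T lineage programme is set up in the thymus, where Notch signals induce TCF-1 (the product of Tcf7), which acts with LEF-1 and BCL11B to fix T cell identity. Sox4 and Il7r are used earlier and more widely, since SOX4 supports early lymphoid progenitors and the IL-7 receptor carries the survival signal of pro-B, pro-T and naïve T cells. Lef1 is also expressed in B cell progenitors and is low in mature splenic B cells. Splenic B cell preparations can hold small numbers of T cells, and in bulk samples like these, fewer cells of a type and less RNA per cell cannot be told apart.

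Detection of the genes varied between arrays. Levels are log2 intensities relative to the 75th percentile of the same array, and a probe is called well above background by the scanner software. The bright Cd4 probe and the Thy1 probe were well above background on all 12 arrays, and a second Tcf7 probe was on none. Of the 14 probes, 13, 8 and 12 were well above background on the knockout stimulated arrays, against 4, 2 and 11 on the control stimulated arrays. On the knockout resting arrays 9, 11 and 12 probes were, against 7, 10 and 10 on the control resting arrays. The lowest counts were thus those of control stimulated replicates 1 and 2. These arrays also had the fewest spots well above background of any kind, with 36.6% and 24.3%, while the other 10 arrays had 40.5% to 76.8%. The part that this difference in sensitivity has in the changes below was not tested. Replicates 1 and 2 of every group lay on slide 1 and replicate 3 of every group on slide 2, so each change is also given within slides. The brighter probe of Sub1, the targeted gene, read 6.72, 6.87 and 6.92 in knockout stimulated cells against 8.19, 7.79 and 8.15 in control stimulated cells, and 5.37, 5.80 and 5.77 in knockout resting cells against 6.07, 6.02 and 6.0 in control resting cells, lower in the knockout on every array of both states. A second Sub1 probe, well above background on 10 arrays, read -1.35, -0.88 and -1.25 in knockout stimulated cells against -0.88, -2.02 and -0.87 in control stimulated cells, which overlapped. It read -1.51, -0.62 and -1.29 in knockout resting cells against 0.20, -0.25 and -0.78 in control resting cells. The labels do not place the deleted exons, so it is not known whether either probe lies within them.

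**Figure D1:**
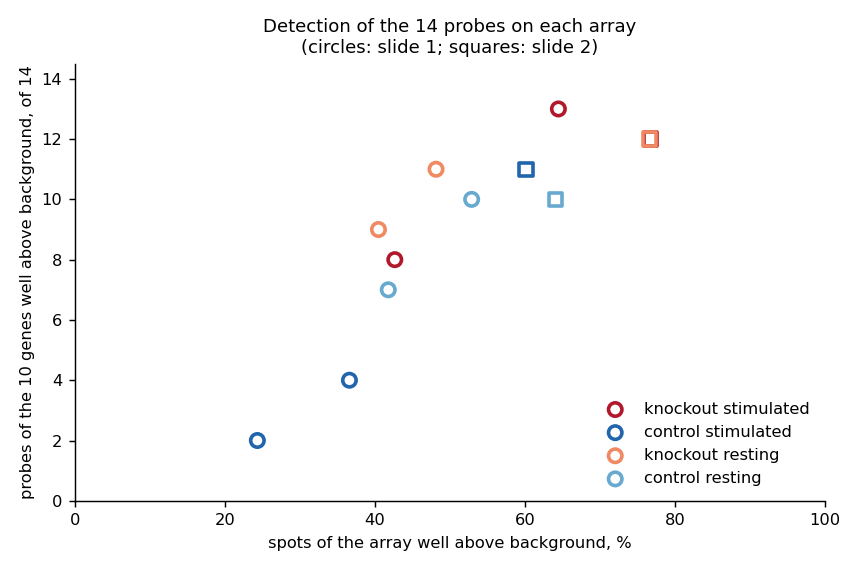
Probes of the 10 genes that were well above background on each array, out of 14 (vertical axis), against the percentage of all spots of that array that were (horizontal axis). Colours give the 4 groups and shapes the slide. The control stimulated arrays of slide 1 sit lowest on both axes, at 4 and 2 probes.

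The promoter windows of the genes the results turn on are shown with the letters TGGGAA in capitals, a core of the kind bound by Ikaros factors, since the study's title names IKAROS beside PC4. They are RefSeq windows of build GRCm38.p6, from 250 bases before to 50 bases after the annotated transcription start. Windows were found for 8 of the 10 genes. Cd3g (chr9:44980382-44980681, minus strand) and Cd3d (chr9:44981536-44981835, plus strand) are neighbours that start 1355 bases apart and run in opposite directions. Cd3e (chr9:45009562-45009861, minus strand) starts 27,825 bases beyond Cd3d in the same cluster. Lef1 (chr3:131110047-131110346, plus strand), Bcl11b (chr12:108003365-108003664, minus strand) and Sox4 (chr13:28953650-28953949, minus strand) follow.
Cd3g: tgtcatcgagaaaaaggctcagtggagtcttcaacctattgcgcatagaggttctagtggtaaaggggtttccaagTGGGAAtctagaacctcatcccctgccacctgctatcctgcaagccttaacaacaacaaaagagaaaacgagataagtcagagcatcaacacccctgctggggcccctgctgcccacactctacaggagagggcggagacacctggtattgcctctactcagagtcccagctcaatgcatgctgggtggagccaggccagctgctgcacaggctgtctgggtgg
Cd3d: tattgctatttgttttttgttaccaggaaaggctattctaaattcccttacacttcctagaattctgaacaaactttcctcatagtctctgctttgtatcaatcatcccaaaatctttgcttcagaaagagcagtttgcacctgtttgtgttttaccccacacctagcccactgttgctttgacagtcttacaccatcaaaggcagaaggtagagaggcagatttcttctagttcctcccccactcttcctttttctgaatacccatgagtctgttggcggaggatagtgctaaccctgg
Cd3e: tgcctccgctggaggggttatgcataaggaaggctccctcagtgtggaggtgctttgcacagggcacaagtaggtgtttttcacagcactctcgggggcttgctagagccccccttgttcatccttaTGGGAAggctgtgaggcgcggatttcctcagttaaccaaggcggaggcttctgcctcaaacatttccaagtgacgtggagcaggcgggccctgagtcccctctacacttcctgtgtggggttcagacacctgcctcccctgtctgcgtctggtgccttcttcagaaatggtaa
Lef1: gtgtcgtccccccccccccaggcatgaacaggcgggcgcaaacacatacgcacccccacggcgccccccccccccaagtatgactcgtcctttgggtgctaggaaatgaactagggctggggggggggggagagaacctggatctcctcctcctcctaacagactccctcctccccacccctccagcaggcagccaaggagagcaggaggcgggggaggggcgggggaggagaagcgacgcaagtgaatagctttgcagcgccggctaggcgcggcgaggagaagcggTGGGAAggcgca
Bcl11b: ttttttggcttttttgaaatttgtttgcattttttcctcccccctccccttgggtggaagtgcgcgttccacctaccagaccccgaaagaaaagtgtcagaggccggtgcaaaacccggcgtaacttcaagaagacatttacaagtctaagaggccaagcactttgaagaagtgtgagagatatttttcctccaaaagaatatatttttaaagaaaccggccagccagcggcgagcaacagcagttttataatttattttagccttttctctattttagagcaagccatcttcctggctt
Sox4: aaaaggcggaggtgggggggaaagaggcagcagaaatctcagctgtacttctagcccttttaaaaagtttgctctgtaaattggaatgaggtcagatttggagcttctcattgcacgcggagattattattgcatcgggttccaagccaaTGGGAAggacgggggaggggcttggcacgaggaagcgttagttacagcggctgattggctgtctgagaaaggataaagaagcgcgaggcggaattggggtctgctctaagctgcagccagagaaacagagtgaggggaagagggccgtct
TGGGAA, counted on both strands, was in 4 of the 8 windows, against 25.6% of 32,851 mouse windows of 300 bases. It lay 174 bases before the start in Cd3g, 123 before in Cd3e, 100 before in Sox4 and 38 after in Lef1. CTTTGA, a core of TCF/LEF sites, occurred 2 times in the Cd3d window and 1 time in that of Bcl11b, and 16.0% of all windows hold it. AANNGAAA, the core of sites of interferon regulatory factors such as IRF4, was in the Cd3g window alone among the 8 and in 23.9% of all windows. These are matches of letters only, and the windows of Tcf7 and Il7r held none of the 3 motifs. The neighbours Cd3g and Cd3d had different motifs in their windows and similar levels across the arrays, as the values below show.

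The CD3 chain genes did not move together. Cd3d and Cd3g stood lowest in control stimulated cells, whereas Cd3e, which lies in the same cluster, had overlapping levels in all 4 groups. The Cd3g level was 0.54, -0.32 and 0.63 in knockout stimulated cells, against -1.69, -2.32 and -1.84 in control stimulated cells. All 3 knockout arrays lay above all 3 control arrays, although Cd3g was well above background on only 1 of the control stimulated arrays. The Cd3g transcript rose 4.71-fold in the stimulated knockout (log2 change 2.24, SE 0.53, limma adjusted p = 0.0481), and the slides gave 2.12 and 2.47. With the replicate number as a block the adjusted p of Cd3g was 0.0528, so this call ended. In resting cells the Cd3g level was 0.45, -0.30 and 0.40 in the knockout, against -1.48, 0.73 and -1.32 in the control, where replicate 2 stood above all the knockout arrays.

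Cd3d followed a similar course with a wider spread. Its level was 0.88, -0.69 and 0.94 in knockout stimulated cells, against -2.09, -0.80 and -2.54 in control stimulated cells. The second replicates of the genotypes differed by 0.10. Of the control stimulated arrays, however, only replicate 3 had Cd3d well above background, so that difference sets a detected level against an undetected one. The groups did not overlap, but the change of 2.18 (SE 0.64, adjusted p = 0.0937) did not pass the test. It came to 1.54 on slide 1 and 3.48 on slide 2. In the resting state Cd3d read 0.41, 0.41 and 0.94 in the knockout, against -0.32, 0.26 and -1.93 in the control. These resting levels differed by 0.44 on slide 1 and by 2.87 on slide 2, where the control array was low. Cd3e read 1.02, 0.56 and 1.38 in knockout stimulated cells, against 0.47, -0.42 and 1.73 in control stimulated cells (change 0.39, SE 0.51, adjusted p = 0.657). In resting cells it read 0.97, 0.16 and 1.59 in the knockout, against 0.61, 0.84 and 0.93 in the control. The Cd3e groups overlapped in both states, and its changes turned sign between slides.

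**Figure D2:**
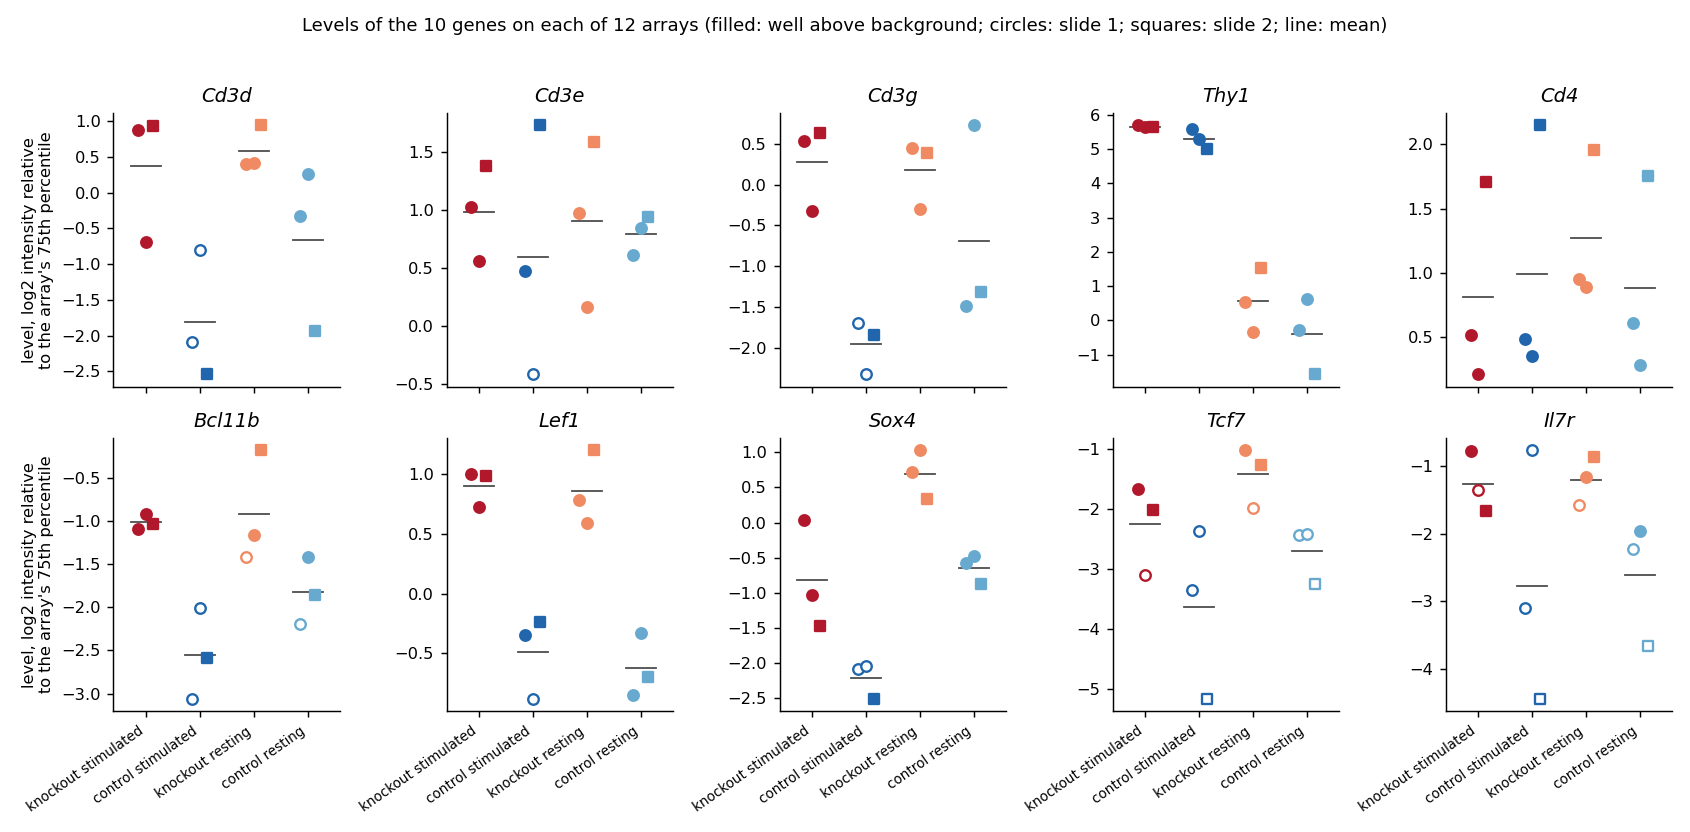
Level of each of the 10 genes on each of the 12 arrays, as log2 intensity relative to the array's 75th percentile, with a vertical axis of its own for each gene. Filled points were well above background, circles are slide 1, squares slide 2, and lines are group means; for genes with 2 probes the brighter or more often detected probe is drawn. Lef1 separates the genotypes in both states, Thy1 the states, and Cd4 the slides. The resting levels were in view when the list was drawn up.

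Among the surface markers, Thy1 responded to culture and Cd4 separated the slides. The Thy1 glycoprotein, a pan-T cell marker in mice that other activated cells can carry, had a level of 5.68, 5.63 and 5.64 in knockout stimulated cells, against 5.59, 5.30 and 4.99 in control stimulated cells. The genotypes did not overlap there, but the change of 0.36 (SE 0.54) was small and did not pass the test (adjusted p = 0.705). In resting cells Thy1 read 0.55, -0.32 and 1.52 in the knockout, against -0.28, 0.62 and -1.57 in the control. The resting difference was -0.06 on slide 1 and 3.08 on slide 2, so it lay in replicate 3.

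Cd4 had 2 probes that differed in brightness. The bright probe read 0.52, 0.21 and 1.70 in knockout stimulated cells, against 0.49, 0.35 and 2.15 in control stimulated cells, and 0.96, 0.89 and 1.96 in knockout resting cells, against 0.61, 0.29 and 1.75 in control resting cells. In all groups the third replicate, on slide 2, was highest, and the 4 arrays of slide 2 lay above all 8 of slide 1, as 3.06% of all features did. The knockout minus control change of this probe was -0.18 (SE 0.59, adjusted p = 0.870) in stimulated cells. The genes whose levels over the 12 arrays correlated best with it were Sall4 (r = 0.96), Tas2r109 (r = 0.96) and Car4 (r = 0.95). The second Cd4 probe, printed as 10 spots, was well above background on 2 knockout stimulated, 1 control stimulated, 3 knockout resting and 2 control resting arrays, and its spots had a median SD of 0.46 within an array. It differed by 0.58 in stimulated and 0.99 in resting cells, knockout minus control, with overlapping groups, and it did not separate the slides. The Cd4 probes thus disagree on both the slide pattern and the size of the genotype difference.

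Lef1, a transcription factor gene of the T lineage, rose in stimulated knockout cells, while Tcf7 was too dim to test. Bcl11b, another such gene, read higher there but entered the test through the knockout stimulated group alone. Lef1, a partner of beta-catenin, read 1.00, 0.72 and 0.99 in knockout stimulated cells, against -0.35, -0.89 and -0.24 in control stimulated cells. Lef1 rose 2.63-fold in the stimulated knockout (log2 change 1.39, SE 0.24, adjusted p = 0.0168), and slides 1 and 2 gave 1.48 and 1.23. In resting cells Lef1 read 0.78, 0.59 and 1.20 in the knockout, against -0.85, -0.34 and -0.70 in the control, with differences of 1.28 on slide 1 and 1.90 on slide 2. In stimulated cells all 3 knockout arrays lay above all 3 control arrays for Lef1, as for 10.9% of all features. The resting arrays were also separate, but their levels were in view when the list was drawn up, so nothing is read from that. Lef1 was well above background on every array except control stimulated replicate 2. The Lef1 call ended without knockout stimulated replicate 1, 2 or 3 (changes 1.35, 1.48 and 1.35, with adjusted p = 0.0668, 0.0558 and 0.0581) and without control stimulated replicate 1 (1.46, adjusted p = 0.0536). Of the stimulated arrays, it held only without control stimulated replicate 2 or 3. It also held without each resting array, but these do not enter the change itself.

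Bcl11b, the commitment factor that represses non-T fates in thymocytes, was dimmer. Its better probe read -1.09, -0.91 and -1.04 in knockout stimulated cells, against -3.06, -2.0 and -2.58 in control stimulated cells. On this probe the Bcl11b signal was 2.90-fold higher in the stimulated knockout (log2 change 1.54, SE 0.36, limma adjusted p = 0.0464), and slides 1 and 2 gave 1.53 and 1.55. This probe passed the filter on low signal through the knockout stimulated group alone, where it was well above background on 3 arrays, against 1 in control stimulated cells and 2 in each resting group. Signal in that group was what admitted the probe, so its test is given without further reading. In resting cells it read -1.42, -1.15 and -0.18 in the knockout, against -2.19, -1.41 and -1.86 in the control, where the highest control array, at -1.41, stood just above the lowest knockout array. A second Bcl11b probe was well above background on 1 knockout stimulated and 1 control stimulated array and was not tested. It read -2.22, -3.66 and -5.67 in knockout stimulated cells, against -3.97, -2.31 and -0.66 in control stimulated cells. These groups overlapped, with a change of -1.54 (0.20 on slide 1 and -5.01 on slide 2), so the Bcl11b probes differ in sign there. The calls of Bcl11b and Cd3g were close to the threshold and each ended when any single one of 10 of the 12 arrays was left out. Without those 10 arrays in turn the change of Bcl11b was 1.28 to 1.58 and that of Cd3g 2.05 to 2.54. Bcl11b remained called without control stimulated replicate 2 (adjusted p = 0.0244) or knockout resting replicate 3 (adjusted p = 0.0333), and Cd3g without control resting replicate 1 (adjusted p = 0.0484) or 2 (adjusted p = 0.0136). Resting arrays do not enter these changes themselves, so the Cd3g call ended without any single stimulated array.

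Tcf7 was at the limit of detection. Its better probe was well above background on 2 knockout stimulated and 2 knockout resting arrays, and on none of the 6 control arrays. It read -1.66, -3.10 and -2.01 in knockout stimulated cells, against -3.35, -2.37 and -5.17 in control stimulated cells. In resting cells it read -1.02, -1.98 and -1.26 in the knockout, against -2.43, -2.42 and -3.26 in the control. The Tcf7 signal read 2.43-fold higher in resting knockout than in resting control cells. This is a plain ratio to control signals that were well above background on no array, so it is not a lower bound. The stimulated groups overlapped, and no fold is given for them. Tcf7 did not pass the filter and was not tested.

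Sox4, an SRY-type factor of early progenitors, fell on stimulation in both genotypes, and its genotype change did not pass the test. Its bright probe read 0.03, -1.03 and -1.48 in knockout stimulated cells, against -2.08, -2.04 and -2.51 in control stimulated cells, and 0.72, 1.03 and 0.33 in knockout resting cells, against -0.58, -0.47 and -0.88 in control resting cells. The knockout arrays lay above the control arrays in each state, though the resting levels were in view when the list was drawn up. In stimulated cells the Sox4 change was 1.39 (SE 0.35, adjusted p = 0.0618), short of the threshold, and slides 1 and 2 gave 1.56 and 1.04. Only 1 of the control stimulated arrays had Sox4 well above background. With the replicate number as a block the Sox4 change passed the test (adjusted p = 0.0238). In resting cells the difference was 1.34, with 1.4 on slide 1 and 1.21 on slide 2. A second Sox4 probe, well above background on 6 arrays, gave 0.61 with overlap in stimulated cells and 1.41 without overlap in resting cells.

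Il7r was well above background on 2 knockout stimulated, 2 knockout resting and 1 control resting array, and on no control stimulated array. It read -0.77, -1.36 and -1.67 in knockout stimulated cells, against -3.10, -0.77 and -4.44 in control stimulated cells. These groups overlapped, since control stimulated replicate 2, whose lowest level well above background was -0.10, read as high as the highest knockout array, and no fold is given. In resting cells it read -1.57, -1.17 and -0.87 in the knockout, against -2.23, -1.96 and -3.66 in the control, without overlap. Il7r did not pass the filter and was not tested.

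Counted over the genes, 3 of the 8 tested ones (Cd3g, Bcl11b and Lef1) were called higher and 0 lower in the stimulated knockout, where 1.21% of all 22,981 features were called higher, 2.26% lower and 3.46% in either direction. The median change of the 8 genes was 1.39, against -0.02 over all features. For 6 of the 8 (Cd3d, Cd3g, Thy1, Bcl11b, Lef1 and Sox4) every knockout array lay above every control array, as for 10.9% of all features. Because Bcl11b passed the filter only through the knockout stimulated group, and Tcf7 and Il7r not at all, these counts describe the 8 genes and not the whole list. Over the better probe of all 10 genes, 9 had a positive change, with a median of 1.39. In resting cells limma called 0 of the 8 genes, where 0.0131% of all features were called, with 3 genes and 19.7% of features at an unadjusted p under 0.05. There all 8 changes were positive (median 0.95, against -0.21 over all features), and Cd3d, Lef1 and Sox4 lay wholly above the control, as 9.73% of features did. Nothing is read from these resting values, which were in view when the list was drawn up. The difference between the genotype changes of stimulated and resting cells passed limma's test for 0 of the 8 genes, where 0.144% of all features were called, with 0 genes and 10.6% of features at an unadjusted p under 0.05. It was 1.36 (SE 0.75) for Cd3g and -0.09 (SE 0.35) for Lef1. This difference contains the resting values too, so nothing is read from it either.

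**Figure D3:**
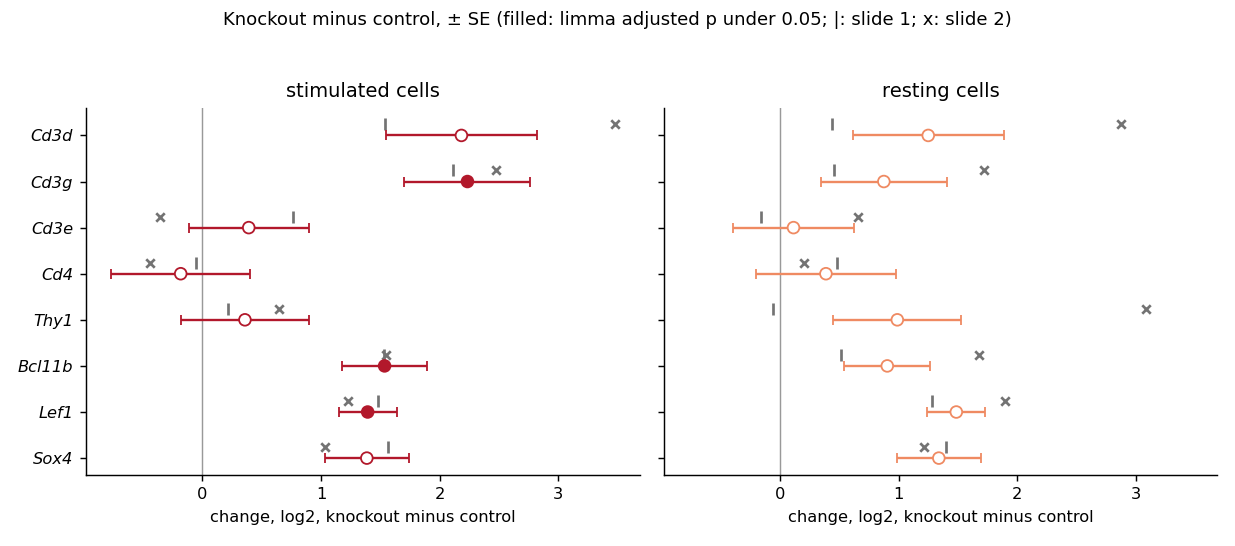
Knockout minus control change (horizontal axis, log2) with its SE for the 8 tested genes, in stimulated cells at left and resting cells at right. Filled points passed limma's adjusted p of 0.05, bars mark slide 1 and crosses slide 2. Lef1 and Sox4 have similar changes in both states and on both slides, and the resting values of Cd3d and Thy1 differ most between slides. The resting values were in view when the list was drawn up.

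Scaling of the arrays moved these counts. Relative to the median of all features the Lef1 change in stimulated cells was 1.41 under the 75th percentile, 1.41 under median scaling, 1.41 under a percentile over spots detected on all arrays and 1.33 under quantile normalization. The 3 percentile-type scalings subtract 1 value per array, so relative changes are the same under them by construction, and nothing is read from that. They gave 2.25 for Cd3g, 1.55 for Bcl11b and 1.40 for Sox4, whereas quantile normalization gave 2.52, 0.94 and 0.89. Taken as they are, the changes were smaller under some settings: Cd3g gave 1.68 under median scaling (adjusted p = 0.0650) and 1.07 with normexp background correction (adjusted p = 0.0789). Bcl11b gave 0.98 under median scaling (adjusted p = 0.142), 1.03 under quantile normalization (adjusted p = 0.166) and 0.49 with normexp (adjusted p = 0.260). Lef1 gave 0.84 under median scaling, where its call ended (adjusted p = 0.176). The median of all features itself was -0.02 under the 75th percentile, -0.58 under median scaling and 0.39 under the percentile over detected spots. Of all features called in the stimulated knockout comparison 34.8% were higher, against 11.9% under median scaling, 57.1% under quantile normalization and 84.2% under the percentile over detected spots. Only control replicate 1, on both its arrays, had signal of the Y-linked genes Ddx3y and Eif2s3y and lacked that of Xist. Without those arrays none of the 8 genes was called in the stimulated knockout, and the Lef1 change there was 1.46 (adjusted p = 0.0812), the Cd3g change 2.37 (adjusted p = 0.135) and the Bcl11b change 1.28 (adjusted p = 0.194).

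Stimulation for 72 h changed Thy1 and Sox4 in both genotypes. These comparisons use the resting arrays that were in view when the list was drawn up, and the stimulation changes of a genotype share its arrays with the genotype comparisons above. Thy1 rose 33.6-fold in knockout cells (5.07, SE 0.54, adjusted p = 0.000184; 5.55 on slide 1 and 4.12 on slide 2) and 52.0-fold in control cells (5.70, SE 0.54, adjusted p = 3.58e-05; 5.27 and 6.56). All stimulated Thy1 levels, 4.99 to 5.68, lay above all resting levels, -1.57 to 1.52. By size the Thy1 increase ranked 10 of 22,981 features in knockout and 9 in control cells. The genes whose levels over the 12 arrays were most like that of Thy1 were Prkcq (r = 0.99), which encodes protein kinase C theta, S100a6 (r = 0.98) and Nfil3 (r = 0.98), a factor induced by IL-4 in B cells. These correlations mostly express the step between resting and stimulated arrays. Sox4 moved the other way. It fell by 1.52 on the log2 scale in knockout cells (SE 0.35, adjusted p = 0.0147; slides -1.37 and -1.81) and by 1.57 in control cells (SE 0.35, adjusted p = 0.00716; slides -1.53 and -1.63), without overlap in either. Its call in knockout cells ended without knockout stimulated replicate 2 (-1.42, adjusted p = 0.0559) or 3 (-1.19, adjusted p = 0.0503) and without knockout resting replicate 2 (-1.35, adjusted p = 0.0631). In control cells it ended without both arrays of control replicate 1 (-1.60, adjusted p = 0.0520).

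The other genes did not pass limma's test for stimulation. Of the 8 tested, 1 was called higher in knockout cells, where 10.9% of all features were, and 1 lower, where 5.2% were. In control cells 1 was called higher, where 14.7% of all features were, and 1 lower, where 13.1% were. Lef1 gave 0.05 (SE 0.24, adjusted p = 0.943) in knockout and 0.14 (SE 0.24, adjusted p = 0.763) in control cells. Cd3g gave 0.10 (SE 0.53, adjusted p = 0.944) in knockout cells and -1.26 (SE 0.53, adjusted p = 0.110) in control cells, where the stimulated arrays all lay below the resting ones. Cd3d gave -0.21 (SE 0.64, adjusted p = 0.893) in knockout and -1.15 (SE 0.64, adjusted p = 0.232) in control cells.

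**Figure D4:**
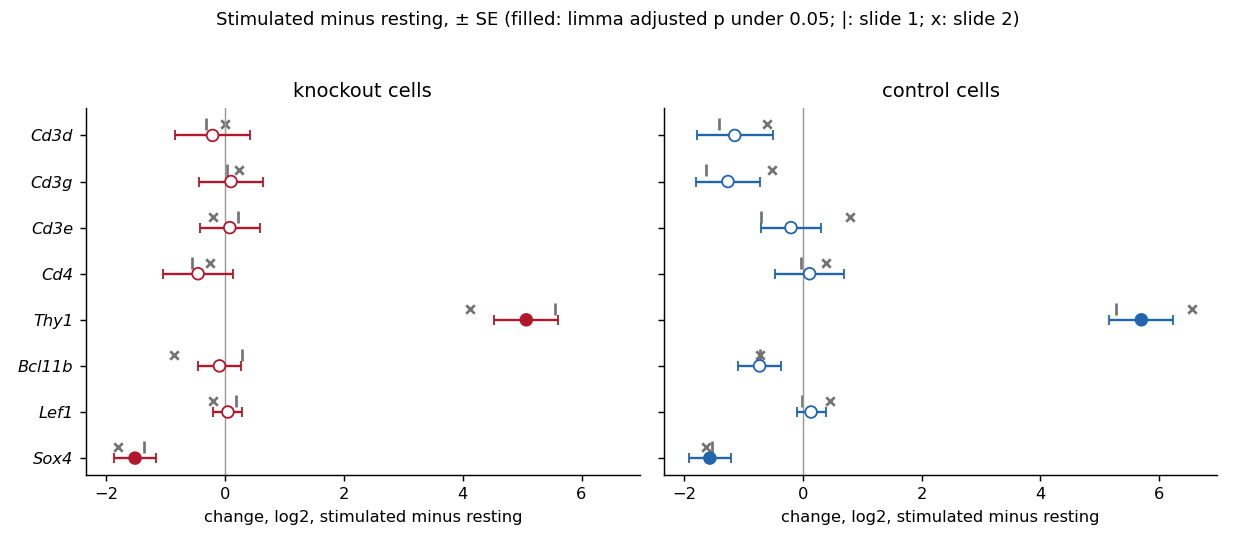
Stimulated minus resting change (horizontal axis, log2) with its SE for the 8 tested genes, in knockout cells at left and control cells at right. Filled points passed limma's adjusted p of 0.05, bars mark slide 1 and crosses slide 2. Thy1 and Sox4 are filled in both genotypes, at 5.07 and -1.52 in knockout cells and 5.70 and -1.57 in control cells.

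Across the 12 arrays the genes did not form a single block. As a description over 12 arrays that share 4 groups and 2 slides, the level of Cd3d correlated with that of Cd3g (r = 0.82) and of Bcl11b (r = 0.81), and that of Lef1 with Cd3g (r = 0.79) and Bcl11b (r = 0.77). Cd3e correlated most with Cd4 (r = 0.74), and less with Lef1 (r = 0.44), Cd3g (r = 0.41) and Cd3d (r = 0.08). After group means were removed, Cd3d and Cd3g had an r of 0.48 and Cd3d and Bcl11b of 0.38, while Cd3e and Lef1 had 0.82, Cd3e and Cd4 0.80 and Cd3g and Lef1 0.74. Cd3g and Thy1 had 0.65 and Cd3d and Thy1 0.61 on the same basis. The closest pairs thus differed between the full levels and the levels within groups. Removing group means leaves slide differences in the levels. On average slide 2 minus slide 1 was 1.35 for the bright Cd4 probe and 0.88 for Cd3e, against 0.23 for Lef1 and 0.02 for Cd3g. The part that the slides have in these correlations was not tested.

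Genes around these in T cell biology were examined as lists drawn up with earlier results known. In the stimulated knockout 1.21% of all features were called higher and 2.26% lower. Of 18 genes of T cell receptor signalling 16 were tested, and in the stimulated knockout 3 were called higher and 1 lower, with a median change of 0.87 against -0.02 over all features. Skap1, an adaptor for integrin activation, rose by 2.74 (SE 0.44, adjusted p = 0.0129). Zap70, the kinase that binds phosphorylated CD3 chains, rose by 2.11 (SE 0.37, adjusted p = 0.0171). Txk, a Tec family kinase of T cells, rose by 2.26 (SE 0.44, adjusted p = 0.0244). Cd2, an adhesion receptor that mouse B cells also carry, fell by 1.23 (SE 0.19, adjusted p = 0.0113). Of 16 T subset and checkpoint markers 11 were tested and 3 were called higher, with a median of 0.41. Tbx21, which encodes T-bet and is also expressed in NK cells and some B cells, gave 1.86 (SE 0.33, adjusted p = 0.0182), Gata3 gave 1.22 (SE 0.26, adjusted p = 0.0315) and the homing receptor Ccr7 gave 1.00 (SE 0.21, adjusted p = 0.0315).

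The lists closer to commitment and progenitors had no called member in the stimulated knockout, where 3.46% of all features were called. Counts of 0 in lists of 4 to 14 tested genes are near that share. Of 8 genes of Notch signalling and T commitment 4 were tested (median -0.25), and the member with the largest change was Hes1 at -0.83 (SE 0.46, adjusted p = 0.308). Of 12 genes of the TCF/LEF family and Wnt signalling 7 were tested (median -0.24), and the largest change was Nkd1 at 0.77 (SE 0.52, adjusted p = 0.390). Of 13 genes of the IL-7 receptor pathway 11 were tested (median -0.07), and the largest change was Socs1 at 0.86 (SE 0.34, adjusted p = 0.178). Of 19 genes of lymphoid progenitors and early B cells 14 were tested (median 0.21), and the largest change was Gfi1 at 1.02 (SE 0.28, adjusted p = 0.0768). Rag1, Rag2 and Dntt, which recombine and extend antigen receptor genes in progenitors, and Igll1, of the surrogate light chain, did not pass the filter on low signal. In resting cells limma called no gene of any of these lists, where 0.0131% of all features were called. The gene with the largest change was Lat at 1.04 (adjusted p = 0.238) for T cell receptor signalling, Il2ra at 1.06 (adjusted p = 0.161) for T subsets and Nkd1 at 0.78 (adjusted p = 0.348) for the TCF/LEF list. It was Dtx1, a Notch target, at -1.39 (adjusted p = 0.140), Cish at 1.11 (adjusted p = 0.200) for the IL-7 receptor pathway and Kit, the stem cell factor receptor, at 1.29 (adjusted p = 0.198) for progenitors.

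The same lists are given for stimulation, where 10.9% of all features were called higher and 5.2% lower in knockout cells, and 14.7% higher and 13.1% lower in control cells. Of the 16 tested genes of T cell receptor signalling 5 were called higher and 1 lower in knockout cells, and 2 higher and 1 lower in control cells. The control counts are near those shares. Lck, the kinase that phosphorylates CD3 chains, rose by 2.20 (SE 0.24, adjusted p = 0.000217) in knockout and by 0.91 (SE 0.24, adjusted p = 0.0164) in control cells. Prkcq rose by 3.04 (SE 0.51, adjusted p = 0.00252) in knockout and by 3.75 (SE 0.51, adjusted p = 0.000329) in control cells. Zap70 rose by 2.11 (SE 0.37, adjusted p = 0.00333) in knockout cells and gave -0.39 (SE 0.37, adjusted p = 0.519) in control cells. Cd5, an inhibitory receptor of T and B-1 cells, fell by 0.84 (SE 0.25, adjusted p = 0.0474) in knockout and by 0.77 (SE 0.25, adjusted p = 0.0445) in control cells.

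Of the 11 tested T subset markers 1 was called higher and 2 lower in knockout cells, and 1 higher and 5 lower in control cells. Il2ra, the alpha chain of the IL-2 receptor, rose by 4.66 (SE 0.25, adjusted p = 5.76e-06) in knockout and by 6.29 (SE 0.25, adjusted p = 7.49e-07) in control cells. Ccr7 fell in both genotypes. Its change was -0.94 in knockout (SE 0.21, adjusted p = 0.0120) and -2.24 in control cells (SE 0.21, adjusted p = 3.55e-05). Of the 4 tested genes of the Notch list Dtx1 and Hes1 fell in both genotypes. Dtx1 fell by 1.39 (SE 0.26, adjusted p = 0.00455) in knockout and by 2.83 (SE 0.26, adjusted p = 3.19e-05) in control cells. Hes1 fell by 1.91 (SE 0.46, adjusted p = 0.0174) in knockout and by 2.28 (SE 0.46, adjusted p = 0.00385) in control cells. Of the 7 tested genes of the TCF/LEF list only Tle3 was called in knockout cells (-0.80, SE 0.19, adjusted p = 0.0153). In control cells Bcl11a (-1.02, SE 0.18, adjusted p = 0.00164), Tle3 (-0.79, SE 0.19, adjusted p = 0.0096) and Tle1 (0.91, SE 0.23, adjusted p = 0.0136) were.

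In the IL-7 receptor pathway 4 of 11 were called higher and 5 lower in knockout cells, and 2 higher and 4 lower in control cells. Cish, a STAT5 target, rose by 6.15 (SE 0.33, adjusted p = 5.76e-06) in knockout and by 7.46 (SE 0.33, adjusted p = 1.17e-06) in control cells. Socs1, a cytokine feedback inhibitor, rose by 3.62 (SE 0.34, adjusted p = 8.57e-05) in knockout and by 2.91 (SE 0.34, adjusted p = 0.000124) in control cells. The kinase gene Jak1 fell by 0.86 (SE 0.17, adjusted p = 0.00686) in knockout and by 1.63 (SE 0.17, adjusted p = 7.14e-05) in control cells. Of the 14 tested progenitor genes 3 were called higher and 3 lower in knockout cells, and 2 higher and 5 lower in control cells, where the count of higher genes is at the share over all features. Flt3, a cytokine receptor of early progenitors, fell by 3.63 (SE 0.23, adjusted p = 1.97e-05) in knockout and by 2.69 (SE 0.23, adjusted p = 2.16e-05) in control cells. Gfi1, a repressor of lymphoid progenitors, rose by 2.35 (SE 0.28, adjusted p = 0.000319) and Ets1 fell by 1.01 (SE 0.16, adjusted p = 0.00189) in knockout cells. In control cells Bcl2l11, which encodes the death factor BIM, rose by 3.1 (SE 0.26, adjusted p = 1.98e-05) and Ebf1, a B lineage factor, fell by 2.09 (SE 0.28, adjusted p = 0.000289). Each of these genes moved the same way in the other genotype. From resting to stimulated, mean levels in control cells went from -0.53 to 1.38 for Gfi1 and from 4.57 to 3.47 for Ets1. In knockout cells they went from -0.785 to 0.80 for Bcl2l11 and from 2.71 to 1.83 for Ebf1.

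**Figure D5:**
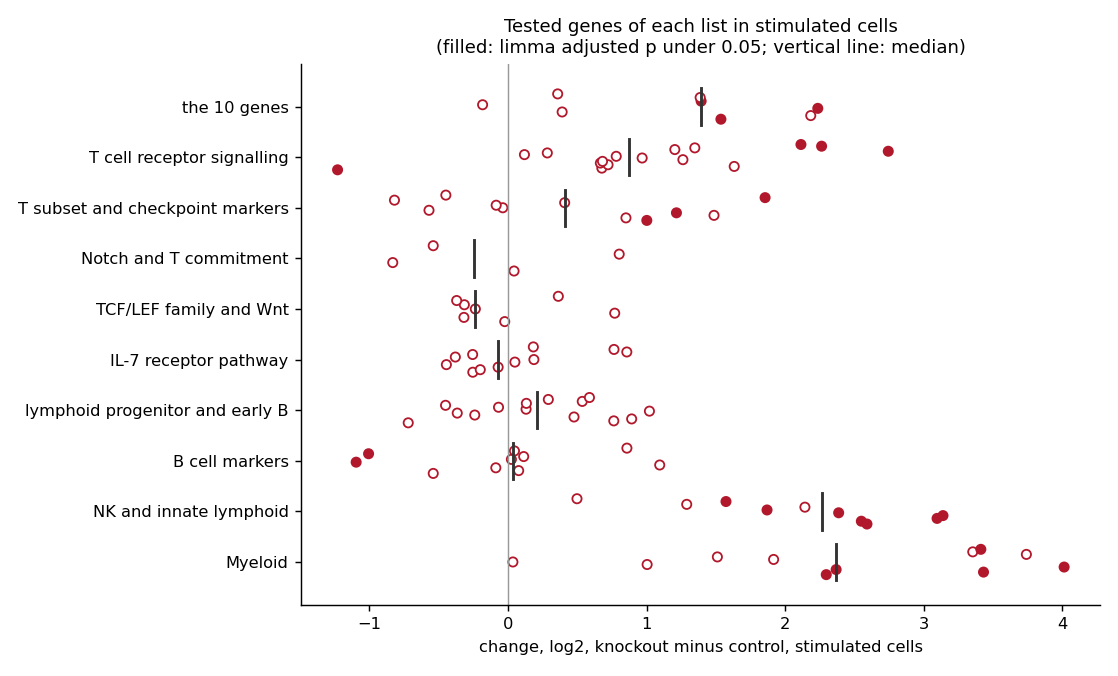
Knockout minus control change in stimulated cells (horizontal axis, log2) of each tested gene, by list. Filled points passed limma's adjusted p of 0.05 and vertical lines are medians, among them 1.39 for the 8 tested of the 10 genes, 0.87 for T cell receptor signalling, -0.25 for the Notch list and 2.26 for NK and innate lymphoid genes.

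Markers of other cell types moved in the comparison of stimulated knockout with control cells, where 1.21% of all features were called higher and 2.26% lower. Of 10 tested NK and innate lymphoid markers 7 were called higher in the stimulated knockout (median 2.26), among them Id2 at 2.39 (SE 0.25, adjusted p = 0.00206), Gzmb at 3.14 (SE 0.41, adjusted p = 0.00554) and Ccl5 at 2.59 (SE 0.37, adjusted p = 0.00871). The summed level of the 14 NK markers, as linear intensity over the array's 75th percentile, was 240 to 460 in knockout stimulated cells against 41.1 to 42.6 in control stimulated cells, and 31.6 to 42.6 in knockout resting cells against 15.5 to 24.2 in control resting cells. Most of the sum in stimulated cells came from Gzma and Gzmb, with log2 levels of 7.17 to 8.35 and 5.65 to 6.19 in the knockout, against 4.43 to 4.62 and 2.65 to 2.94 in the control. The NK receptor genes Ncr1 and Klrb1c had means of -0.68 and 0.29 in knockout stimulated cells, against -1.97 and -1.85 in control stimulated cells. Of 11 tested myeloid markers 5 were called higher (median 2.37). The sum of the 12 on the array, tested or not, was 31.0 to 39.3 in knockout stimulated cells against 10.9 to 27.0 in control stimulated cells, and 107.1 to 155 in knockout resting cells against 48.7 to 82.3 in control resting cells. The 13 T cell markers, which include the CD3 chains, had 2 called higher and 1 lower, with positive changes in 12 (median 0.97). The summed level of the CD3 chains was 2.89 to 6.06 in knockout stimulated cells against 1.52 to 3.77 in control stimulated cells, and 3.26 to 6.24 in knockout resting cells against 2.57 to 4.65 in control resting cells, overlapping in both states. Cd2, which B cells share, is among the 13. The sum of the other 12 was 37.0 to 49.2 in knockout stimulated cells against 22.1 to 23.7 in control stimulated cells, and 14.7 to 24.5 in knockout resting cells against 15.2 to 20.0 in control resting cells. Most of this sum in stimulated cells came from Lck, with log2 levels of 4.61 to 5.06 in the knockout, against 3.87 to 4.07 in the control. With Cd2 the sum was 97.2 to 105 in knockout stimulated cells against 128 to 187 in control stimulated cells, and 90.6 to 102 in knockout resting cells against 104 to 118 in control resting cells. Of these 13 markers 12 to 13 were well above background on knockout stimulated arrays, against 2 to 13 on control stimulated arrays, and 10 to 13 on knockout resting arrays, against 12 on each control resting array. The 10 B cell markers, 8 to 10 of which were well above background on every array, had a sum of 697 to 795 in knockout stimulated cells against 669 to 932 in control stimulated cells, and 819 to 1005 in knockout resting cells against 1249 to 1447 in control resting cells. The part that T, NK or myeloid cells in the preparations have in the changes of the 10 genes was not tested.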

How the data were processed

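Per the labels' protocols, splenic B cell RNA was amplified and Cy3-labelled, and each sample was hybridised to an Agilent mouse array of 62,976 spots (12 arrays). The values used are background-subtracted processed intensities (linear scale) that the authors deposited as scanner output; per the file headers they came from Agilent Feature Extraction 10.7.3.1, while the submitters' processing notes name version 9.1. The authors' series matrix repeats these intensity values, rounded (largest difference 0.497%), not normalized between arrays. The number of arrays limits the precision.

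Outlier spots were set to missing, log2 intensities were set against the 75th percentile of all non-control spots on the array, and replicate spots were averaged. Probes were named by transcript accession through RefSeq genes of GRCm38.p6 (26,413 of 55,681). The filter on low signal kept a probe if, in some group, all 3 arrays had it well above background, a probe of several spots counting as such where at least 50% of them were. The brightest probe stood for a gene, which gave 22,981 features, 10,686 of them unnamed probes. The log2 levels were fitted with limma 3.58.1 in R 4.3.3 (lmFit and eBayes, 4 group means, 12 arrays, 8 residual and 2.55 prior degrees of freedom), with Benjamini-Hochberg adjustment across features and a threshold of 0.05. A limma fit of the same form was also run on simulated log2 levels, for the stimulated genotype comparison alone. That run did not cover the scaling, the filter or the choice of probes. Where a group had no array well above background, a ratio of signals was given only if the groups did not overlap.

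The 10 genes, the other lists and the rules for naming genes were chosen with earlier results of these data known. Named from each T lineage or progenitor list were up to 3 called genes with the smallest adjusted p in a comparison or, with none called, the gene with the largest change; one gene that this rule names is not reported here, and further genes, among them those outside the top of a list, are named where a count is small. The nearest genes are the 3 with the highest Pearson correlation over 12 arrays. Same-numbered arrays deviated together from their group means in all 3 pairs of the stimulated genotype comparison (r = 0.35, 0.33 and 0.48). They also did in those of the control cells' stimulation comparison (0.42, 0.43 and 0.51), so the replicate number was also used as a block. The pairing was less even in the resting genotype comparison (-0.12, 0.20 and 0.39) and the knockout cells' stimulation comparison (0.003, 0.15 and 0.39). The third pair of each comparison lies on slide 2. Alternatives were other scalings, normexp background correction (offset 50), other filters, blocks and subsets of arrays.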

Additional observations from a re-analysis of the deposited data

How the results depend on the processing

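Under 24 to 26 other settings for each tested gene and comparison, no called change turned sign. With the replicate number as a block the stimulated knockout comparison again called 3 of the 8 genes, but with Sox4 (adjusted p = 0.0238) in place of Cd3g (adjusted p = 0.0528), and over all features it called 1865 in place of 796; it changed no other call of the genes. The 3 calls of the stimulated knockout became 0 in a fit of the 2 groups only, under median scaling, with no filter, with a filter on all 12 arrays, without both arrays of control replicate 1 and on slide 1 alone (the last 2 chosen after seeing the data), 1 under quantile normalization and normexp, and 5 under a percentile over detected spots. With single arrays left out they ranged from 0 to 3. Lef1 remained called in 16 of 25 settings, Cd3g and Bcl11b in 7 each, and Sox4 gained the call in 4 and Cd3d in 3. In resting cells the count of 0 became 1 (Lef1) under quantile normalization, the percentile over detected spots, normexp and the trend and robust setting, and stayed 0 without single arrays. For stimulation in knockout cells the 2 calls became 1 in a fit of the 2 groups only, under median scaling, with no filter, with a filter on all 12 arrays and on slide 1 alone, and 1 to 2 without single arrays; in control cells they became 1 with a filter on all 12 arrays and without both arrays of control replicate 1, and 3 under the percentile over detected spots, where Cd3g gained a call (adjusted p = 0.0377). The call that ended was that of Sox4, whereas Thy1 remained called in all 26 settings in both genotypes. A filter on all 12 arrays keeps only Thy1 and Cd4 of the genes, and fits on fewer arrays have fewer samples; elsewhere the cause was not tested. Over all features the stimulated knockout comparison called between 0 (2 groups only) and 2349 (percentile over detected spots), the resting one 3, against 0 (2 groups only, no filter), 41 (replicate block), 51 (percentile over detected spots), 96 (normexp) and, under trend and robust, 43 higher and 64 lower, stimulation in knockout cells 3692 and as few as 1543 (slide 1 alone), stimulation in control cells 6397 and as few as 3346 (median scaling), and the difference between genotype changes 33 and between 0 (no filter) and 335 (trend and robust). Of the calls for stimulation 67.7% in knockout cells and 52.9% in control cells were higher, against 51.6% and 41.8% under quantile normalization and 36.3% and 29.2% under the percentile over detected spots. Signal over background limits the dimmer genes: Tcf7 and Il7r could not be tested, and Cd3d, Cd3g, Bcl11b and Sox4 were well above background on 1 of 3 control stimulated arrays.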
